A study of Mus musculus with 2 samples.

Results

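The interferon-stimulated genes analysed here are 74 transcript clusters of 73 genes, chosen by their symbols from the 33793 clusters of the main category on the array. A transcript cluster is a set of short probes that together measure 1 gene or transcript. The choice took the Ifi, Ifit, Ifitm, Oas, Gbp, Irf, Irgm and Mx families together with Stat2, Isg15, Isg20, Rsad2, Usp18, Iigp1, Zbp1, Bst2, Ddx58 and 1 further gene, and it used names only and no measured value. Irf4 was left out. The names also brought in genes that are not known as interferon-induced, among them the IRF2-binding proteins, Ifitm5, Ifitm7 and Ifitm10.

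The study compared untreated C3 KO mice, which carry a knockout of complement component 3 on an FVB background, with untreated WT FVB mice, all 16 weeks old. Both genotypes came from crosses of heterozygous parents, and the study examined gene expression in the colon of C3 KO mice with constipation. Total RNA of the mid colon was hybridized to 1 array per genotype, and the sample records name the distal colon as the tissue. Whether an array holds RNA of 1 mouse or of several is not given in the sources used here.

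Values are log2 levels after normalization by the robust multi-average (RMA) method, so a difference of 1 is a 2-fold change. Each genotype has 1 array, which gives no spread between animals, and therefore neither a test nor a p-value is given. A cluster is called higher or lower where it differs by at least 1.5-fold, a log2 difference of 0.58. The number of arrays limits the precision of every value. The median of 23 background probe sets, which match no mouse transcript, was 3.99 in the C3 KO array and 4.20 in the WT array. Single background sets ran from 1.48 to 8.11 in C3 KO and from 1.45 to 8.56 in WT. Levels below the medians are close to noise, but the medians are not a sharp limit.

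C3 itself had a level of 6.80 in the C3 KO array and 8.15 in the WT array. Markers of colon epithelium and smooth muscle were above the background medians in both arrays, with lowest levels of 6.47 in the C3 KO array and 6.40 in the WT array. The arrays differed in more than the genotype. Pancreatic acinar genes were lower in C3 KO at 24 of 25 clusters (1.5-fold or more), and had a summed linear level of 5108 in C3 KO and 122623 in WT. Y-linked genes were higher and Xist was lower in the C3 KO array (3.81 in C3 KO and 10.35 in WT). The genotype, the acinar RNA and the sex-linked genes cannot be told apart with 1 array per group.

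Interferons are secreted proteins that cells release after they sense viral or bacterial nucleic acids. Type I and type III interferons act through JAK1 and TYK2 on STAT proteins, which join IRF9 and bind the interferon-stimulated response element (ISRE), while type II interferon acts through STAT proteins at the gamma-activated site (GAS). The induced genes encode RNA sensors, nucleases, GTPases that coat intracellular pathogens, and membrane proteins that block viral entry. In the mouse gut, interferon lambda acts mainly on the epithelium, and the microbiota keeps a low level of interferon signaling in the resting tissue.

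As a group, the interferon-stimulated genes stood at similar levels in the C3 KO and WT arrays. Of the 74 clusters, 4 were at least 1.5-fold higher in the C3 KO array (Ifit3b, Oas1e, Ifit1bl1 and Ifi44l) and 2 were at least 1.5-fold lower (Gbp8 and Ifitm6). That is 8.11% of the members, against 7.48% of all 33793 clusters, so the share is near the background. By direction, 5.41% of the members were higher, against 3.66% of all clusters, and 2.7% were lower, against 3.82%. The median log2 difference over the members was 0.03, against 0.00 over all clusters. The middle of the distribution was similar too, with quartiles of -0.15 and 0.23 for the members and of -0.18 and 0.18 for all clusters. In all, 39 members had a positive difference and 34 a negative one, and Gbp2b had the same value in both arrays. At a stricter 2-fold, 4 members were higher (the same 4), or 5.41%, and 0 were lower, against 1.35% of all clusters in either direction, 0.669% higher and 0.678% lower. Ifit3b and Ifi44l, below the background in both arrays, are 2 of these 4.

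**Figure D1:**
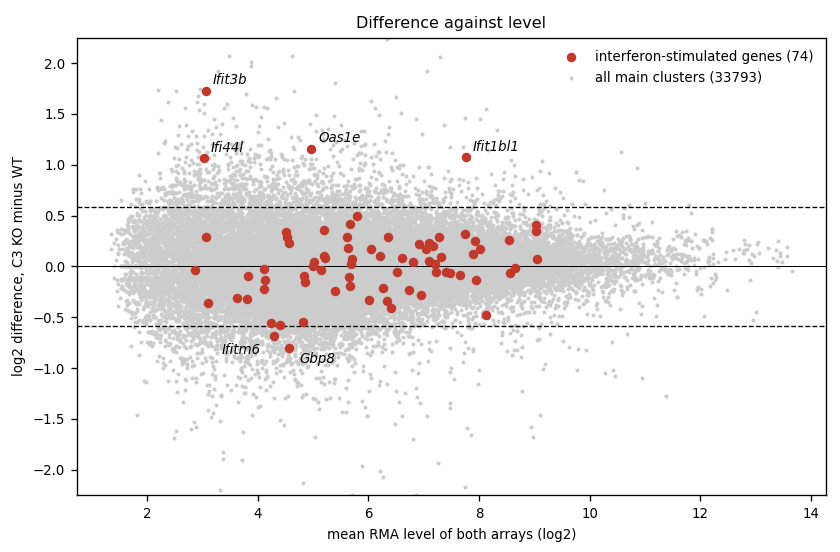
Log2 difference (C3 KO minus WT, y axis) against the mean RMA level of both arrays (log2, x axis) for the 74 interferon-stimulated gene clusters in red and all 33793 main clusters in grey; 63 grey clusters lie outside the plotted range. Dashed lines mark 1.5-fold, and the 6 members beyond them are named, of which Ifit1bl1 is the 1 member with a mean level of at least 6.

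The members that differed were mostly dim. Of 66 members with a mean level of at least 4, 4 were called, or 6.06%, against 6.04% of all clusters at that level. The 4 were 2 higher (Oas1e and Ifit1bl1), with 2.81% of all clusters higher, and 2 lower, with 3.23% of all clusters lower. At 2-fold and this level, 2 members were higher and 0 lower, where 0.46% of all clusters were higher and 0.602% lower, or 1.06% in all. Of 37 members with a mean level of at least 6, 1 was called, Ifit1bl1, or 2.7%, against 3.68% of all clusters at that level, 2.03% higher and 1.65% lower. Ifit1bl1 also passed 2-fold, as did 0.959% of all clusters at that level, 0.307% higher and 0.652% lower. Below a mean level of 4, 2 of 8 members were called, against 13% of all clusters there. Between 4 and 5, 3 of 14 members were called, against 9.62%. Calls over the whole array were also more frequent at these levels than at higher ones. The member shares were above those of all clusters in both ranges, with few members in each. Both arrays were below their background medians for 8 of the 74 members, Ifit3b and Ifi44l among them. The called clusters Oas1e, Ifit3b and Gbp8 have 9 probes each and Ifit1bl1 has 11, while Ifitm6 has 19 and Ifi44l 20, and the median over the members is 19.

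**Figure D2:**
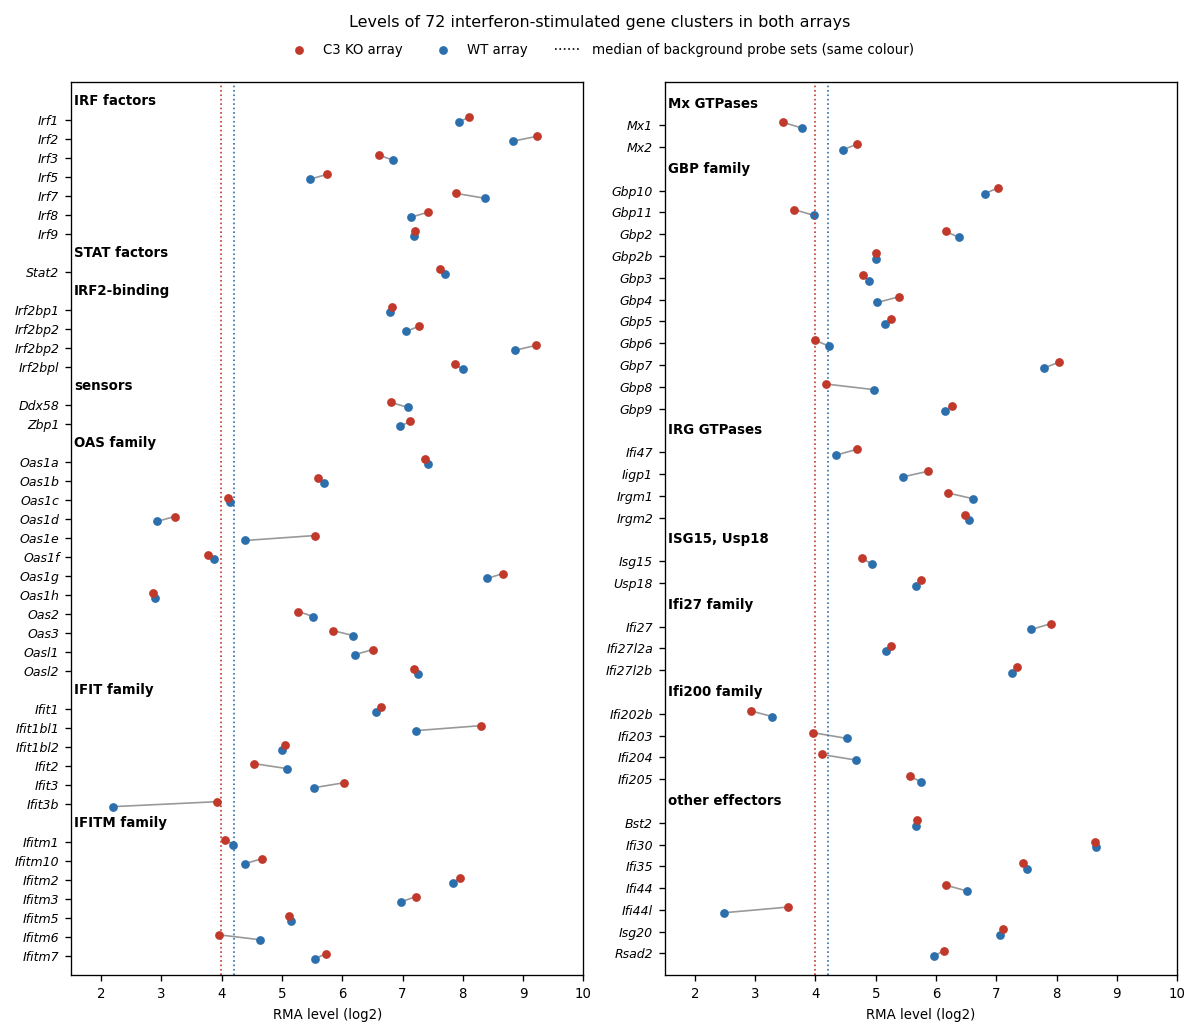
RMA level (log2, x axis) of 72 of the 74 clusters in the C3 KO array (red) and the WT array (blue), by role group; Irf2bp2 has 2 clusters. Dotted lines are the medians of the background probe sets, 3.99 in C3 KO and 4.20 in WT, and most pairs of points lie close together.

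Transcription factors that carry the interferon signal were at similar levels in both arrays. Stat2 had a level of 7.62 in the C3 KO array and 7.70 in the WT array. Irf9, its partner at the ISRE, had 7.21 in C3 KO and 7.19 in WT. Both genes thus differed by less than 0.1 on the log2 scale. None of the 8 interferon regulatory factors passed 1.5-fold, against 7.48% of all clusters. With 8 clusters, 0 calls are near that share. The differences of these factors ran from -0.48 to 0.41.

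Irf7, which amplifies type I interferon production and is itself interferon-induced, had the most negative difference of these factors, with a level of 7.88 in the C3 KO array and 8.36 in the WT array. Irf3, which is activated directly downstream of the nucleic acid sensors, had 6.62 in C3 KO and 6.85 in WT. Irf2, known as an antagonist of Irf1, had the most positive difference, with 9.23 in C3 KO and 8.83 in WT. Irf1 itself, an activator induced by type II interferon, had 8.10 in C3 KO and 7.93 in WT. Neither the activator nor the antagonist reached 1.5-fold.

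Irf5, which acts downstream of Toll-like receptors, had a level of 5.75 in the C3 KO array and 5.46 in the WT array. Irf8, a factor of myeloid and B cell development, had 7.42 in C3 KO and 7.13 in WT, a log2 difference of 0.28. Markers of B cells were higher beside it: 4 of 14 clusters (28.6%) passed 1.5-fold upward and 0 downward, against 3.66% and 3.82% of all clusters. The summed linear level of these markers was 671 in the C3 KO array and 469 in the WT array. The part of B cells in the Irf8 difference was not tested. Fewer or more cells of a type and less or more RNA per cell cannot be told apart in whole-tissue RNA.

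The IRF2-binding proteins are corepressors and are members by name only. Irf2bp2 has 2 clusters, 1 with a level of 9.21 in C3 KO and 8.86 in WT and the other with 7.27 in C3 KO and 7.07 in WT, so both lay on the same side. Irf2bp1 had 6.83 in C3 KO and 6.79 in WT, and Irf2bpl had 7.87 in C3 KO and 8.004 in WT. No cluster of this group passed 1.5-fold, against 7.48% of all clusters.

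Sensors of nucleic acids among the members did not reach 1.5-fold, while 7.48% of all clusters did. Ddx58, which encodes the RNA sensor RIG-I, had a level of 6.81 in the C3 KO array and 7.09 in the WT array. Zbp1, a sensor of Z-form nucleic acids that can start cell death, had 7.13 in C3 KO and 6.96 in WT. The pair thus differed in opposite directions, by -0.28 and 0.17.

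**Figure D3:**
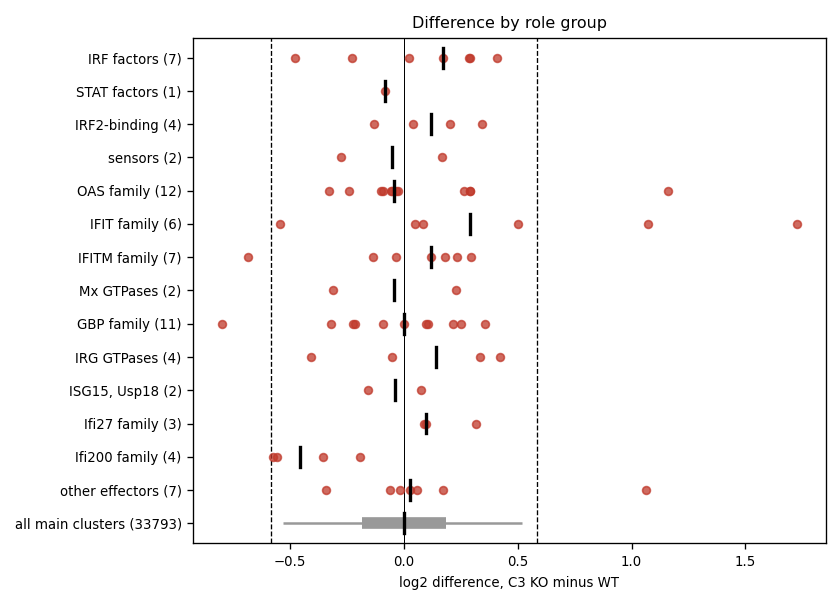
Log2 difference (C3 KO minus WT, x axis) of 72 of the 74 members by role group, with the number of clusters drawn in parentheses; black bars are medians and dashed lines 1.5-fold. The bottom row gives all 33793 clusters, with the middle 50% as a thick bar and the middle 90% as a thin line, and no role group has its median beyond 1.5-fold.

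Oligoadenylate synthetases (OAS) sense double-stranded RNA and make a short oligoadenylate that switches on the ribonuclease RNase L. Of 12 members of this family, 1 was higher, Oas1e, and 0 were lower, against 3.66% and 3.82% of all clusters. The median difference of the family was -0.04. Oas1e had a level of 5.55 in the C3 KO array and 4.39 in the WT array, 2.23-fold higher in C3 KO. Its WT level was close to the background median of 4.20. The other Oas1 genes stayed within 1.5-fold.

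Oas1a had a level of 7.37 in the C3 KO array and 7.43 in the WT array, and Oas1g had 8.66 in C3 KO and 8.40 in WT, both genes of catalytically active enzymes in the mouse. Oas1b, the flavivirus resistance gene of mice, had 5.59 in C3 KO and 5.69 in WT. Oas3, the large synthetase with the most negative difference of the family, had 5.84 in C3 KO and 6.18 in WT, and Oas2 had 5.27 in C3 KO and 5.52 in WT. The synthetase-like genes Oasl1 (6.51 in C3 KO and 6.22 in WT) and Oasl2 (7.20 in C3 KO and 7.26 in WT) also stayed within 1.5-fold. Oas1d, Oas1f and Oas1h did not exceed either background median, and the levels of Oas1c were 4.11 in C3 KO and 4.13 in WT.

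IFIT proteins bind viral RNA and block its translation. This family of 6 clusters held the member with the largest difference, Ifit3b, with 2 higher, 0 lower and a median difference of 0.29. Over all clusters, 3.66% were higher and 3.82% lower. Ifit1bl1, an Ifit1-like gene, had a level of 8.30 in the C3 KO array and 7.23 in the WT array, 2.10-fold higher in C3 KO. Ifit3b had 3.92 in C3 KO and 2.20 in WT, a log2 difference of 1.73, but both levels were below the background medians, so no fold is given. Ifit3, its near-identical neighbour, had 6.04 in C3 KO and 5.54 in WT, a log2 difference of 0.50. Ifit3 and Ifit3b are 2 of the 3 members that the array annotation does not give as unique in hybridization (type 3), so signal may be shared between them.

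The other members of the family stayed within 1.5-fold. Ifit1, a classical sensor of foreign RNA caps, had a level of 6.65 in the C3 KO array and 6.56 in the WT array. Ifit1bl2 had 5.05 in C3 KO and 4.998 in WT. Ifit2 had the opposite sign, with 4.54 in C3 KO and 5.08 in WT, a log2 difference of -0.54 that lies just inside the threshold.

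Promoter sequences are shown for Ifit and Oas genes, to set close relatives beside each other, and for Isg15, a common readout of type I interferon. Of the 6 called members, Oas1e and Gbp8 have no entry in the promoter table. They come from RefSeq on GRCm38.p6, the C57BL/6J genome, and not from the FVB mice of the study. The 250 bases before each start site were searched on both strands for the ISRE core, taken as GAAA, any 2 bases and GAAA again, and for the GAS core TTCNNNGAA, where N is any base. Each line runs 5′ to 3′ on the strand of the gene and stops at the start site at the latest, and capitals mark ISRE matches, which read as TTTC, 2 bases and TTTC where the match lies on the other strand. The Ifit3 window is chr19:34583343-34583446 (+), Ifit3b chr19:34607739-34607842 (+), Ifit1bl1 chr19:34602033-34602102 (-), Ifit1 chr19:34640755-34640843 (+), Isg15 chr4:156200845-156200926 (-), Oas1a chr5:120907526-120907575 (-) and Oas1g chr5:120887614-120887661 (-).
Ifit3: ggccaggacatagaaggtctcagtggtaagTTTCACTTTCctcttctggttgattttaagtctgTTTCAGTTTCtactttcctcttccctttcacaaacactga
Ifit3b: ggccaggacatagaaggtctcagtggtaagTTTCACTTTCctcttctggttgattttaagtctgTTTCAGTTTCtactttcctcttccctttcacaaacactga
Ifit1bl1: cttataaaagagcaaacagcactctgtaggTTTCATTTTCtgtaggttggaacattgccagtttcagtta
Ifit1: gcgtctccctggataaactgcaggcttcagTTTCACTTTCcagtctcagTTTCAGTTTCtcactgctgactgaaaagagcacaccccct
Isg15: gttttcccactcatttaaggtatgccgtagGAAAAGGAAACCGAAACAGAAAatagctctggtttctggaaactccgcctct
Oas1a: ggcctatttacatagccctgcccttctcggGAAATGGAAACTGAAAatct
Oas1g: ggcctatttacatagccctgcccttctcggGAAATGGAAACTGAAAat

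The Ifit3 and Ifit3b windows were the same at 104 of 104 bases. Ifit3b did not exceed either background median and neither cluster is unique in hybridization, so their differences were not set against each other. The Oas1a and Oas1g windows were the same at 48 of 48 bases compared, with log2 differences of -0.05 and 0.26. Ifit1 and Ifit1bl2 start in opposite directions from the same stretch and share its matches, and their differences were 0.08 and 0.05. Ifit1bl1 has 2 start sites with a match each, of which 1 is shown. Overlapping matches in Isg15, Oas1a and Oas1g run together into 1 block of capitals.

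Of the 73 member genes, 52 had a promoter in the table. At least 1 ISRE core lay before the start site of 24 of them, or 46.2%, against 3.46% of 27025 genes with a promoter, and a GAS core before 13, or 25%, against 8.13%. Relatives in a family share sequence, so these genes are not independent: 5 of 6 Ifit genes and 5 of 5 Gbp genes with a promoter had an ISRE core. Over all clusters on the array, 3.66% were higher and 3.82% lower. The genes with an ISRE core had a median log2 difference of 0.01, with 2 higher and 0 lower among 24. Those without it had a median of -0.03, with 1 higher and 1 lower among 28. Ifit3b, with a core, and Ifi44l, without, are the higher ones that were below the background in both arrays, and Oas1e and Gbp8 are in neither count. Calls this few do not set the 2 groups apart. A match is a match of letters only.

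IFITM proteins sit in membranes and hinder the entry of enveloped viruses. Ifitm3, the best studied of them, had a level of 7.22 in the C3 KO array and 6.98 in the WT array, and Ifitm2 had 7.96 in C3 KO and 7.84 in WT. Ifitm1 was close to the background, with 4.06 in C3 KO and 4.19 in WT. Ifitm6 was lower in the C3 KO array, with 3.95 in C3 KO and 4.63 in WT, a log2 difference of -0.68. Its C3 KO level was below the background median of 3.99, so the size of the difference is not exact. The other 3, Ifitm5 of bone, Ifitm7 and Ifitm10, differed by -0.03, 0.18 and 0.29.

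Mx proteins are dynamin-like GTPases that trap viral nucleocapsids, and many laboratory strains carry a defective Mx1. Mx1 had a level of 3.47 in the C3 KO array and 3.78 in the WT array, below the background medians in both. Mx2 had 4.68 in C3 KO and 4.45 in WT. Both genes stayed within 1.5-fold and near the background.

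Guanylate-binding proteins (GBP) coat the vacuoles of intracellular bacteria and parasites and are typical targets of type II interferon. Of 11 members, 0 were higher and 1 was lower, against 3.66% and 3.82% of all clusters. The median difference of these members was 0.00. Gbp8 had a level of 4.17 in the C3 KO array and 4.97 in the WT array, 1.74-fold lower in C3 KO. Gbp2, strongly induced by type II interferon, had 6.16 in C3 KO and 6.37 in WT, and Gbp5, which promotes inflammasome activation, had 5.25 in C3 KO and 5.15 in WT. Neither of these 2 typical targets was near 1.5-fold.

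The remaining guanylate-binding proteins lay between -0.32 (Gbp11) and 0.35 (Gbp4, 5.38 in C3 KO and 5.03 in WT). Gbp11, with 3.65 in C3 KO and 3.97 in WT, was below the background medians in both arrays. Gbp7 had a level of 8.04 in the C3 KO array and 7.79 in the WT array. Gbp2b had 5.001 in both arrays, and Gbp3 had 4.80 in C3 KO and 4.89 in WT. Gbp6 and Gbp9 differed by -0.22 and 0.11, and Gbp6 was close to the background medians, with 3.998 in C3 KO and 4.22 in WT. Gbp10, with 7.03 in C3 KO and 6.81 in WT, is the third member that is not unique in hybridization.

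Immunity-related GTPases are a second family that attacks the vacuoles of pathogens in mice. Irgm1, which restrains the effector GTPases on the membranes of the cell itself, had a level of 6.20 in the C3 KO array and 6.61 in the WT array, and Irgm2 had 6.49 in C3 KO and 6.54 in WT. The effector Iigp1 had 5.87 in C3 KO and 5.45 in WT, and Ifi47 had 4.68 in C3 KO and 4.35 in WT. The differences of these members ran from -0.41 to 0.42, with no member past 1.5-fold, against 7.48% of all clusters.

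Isg15, a ubiquitin-like protein that is joined to other proteins after interferon exposure, had a level of 4.78 in the C3 KO array and 4.93 in the WT array. Usp18, the protease that removes it and that also damps the type I receptor, had 5.75 in C3 KO and 5.67 in WT. These are among the genes most often used to read out type I interferon, and both differed by less than 0.2 on the log2 scale.

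Other antiviral effectors were at similar levels with 1 exception. Rsad2, which makes a nucleotide that ends viral RNA chains, had a level of 6.13 in the C3 KO array and 5.96 in the WT array. Bst2, or tetherin, which holds budding virions on the cell, had 5.69 in C3 KO and 5.67 in WT, and the exonuclease Isg20 had 7.12 in C3 KO and 7.06 in WT. Ifi30, a thiol reductase of antigen processing, had 8.64 in C3 KO and 8.65 in WT. Ifi35 had 7.45 in C3 KO and 7.51 in WT.

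Ifi44l was the exception, with a level of 3.55 in the C3 KO array and 2.49 in the WT array, a log2 difference of 1.06. Both levels were below the background medians, so no fold is given. Its relative Ifi44 had 6.17 in C3 KO and 6.51 in WT, with the opposite sign. The 3 genes of the Ifi27 family all had small positive differences, from 0.09 to 0.32, the largest for Ifi27 (7.90 in C3 KO and 7.58 in WT), with Ifi27l2a and Ifi27l2b at 0.09 each.

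The Ifi200 family encodes proteins that bind DNA, and Ifi204 is the mouse counterpart most often compared with the human DNA sensor IFI16. All 4 members had negative differences, with a median of -0.46, and 0 passed 1.5-fold, against 7.48% of all clusters. Ifi204 had a level of 4.11 in the C3 KO array and 4.68 in the WT array, and Ifi203 had 3.96 in C3 KO and 4.52 in WT, log2 differences of -0.57 and -0.56 just inside the threshold. The C3 KO level of Ifi203 was below the background median of 3.99, so the size of its difference is not exact. Ifi205 had 5.57 in C3 KO and 5.76 in WT. Ifi202b, an inhibitor of the Aim2 inflammasome, was below the background medians in both arrays (2.93 in C3 KO and 3.28 in WT). Mndal and Pyhin1, further genes of this family from the list of interferon-induced genes, did not exceed either background median, and Aim2 had 9.07 in C3 KO and 8.58 in WT, so the family as a whole had no common sign.

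**Figure D4:**
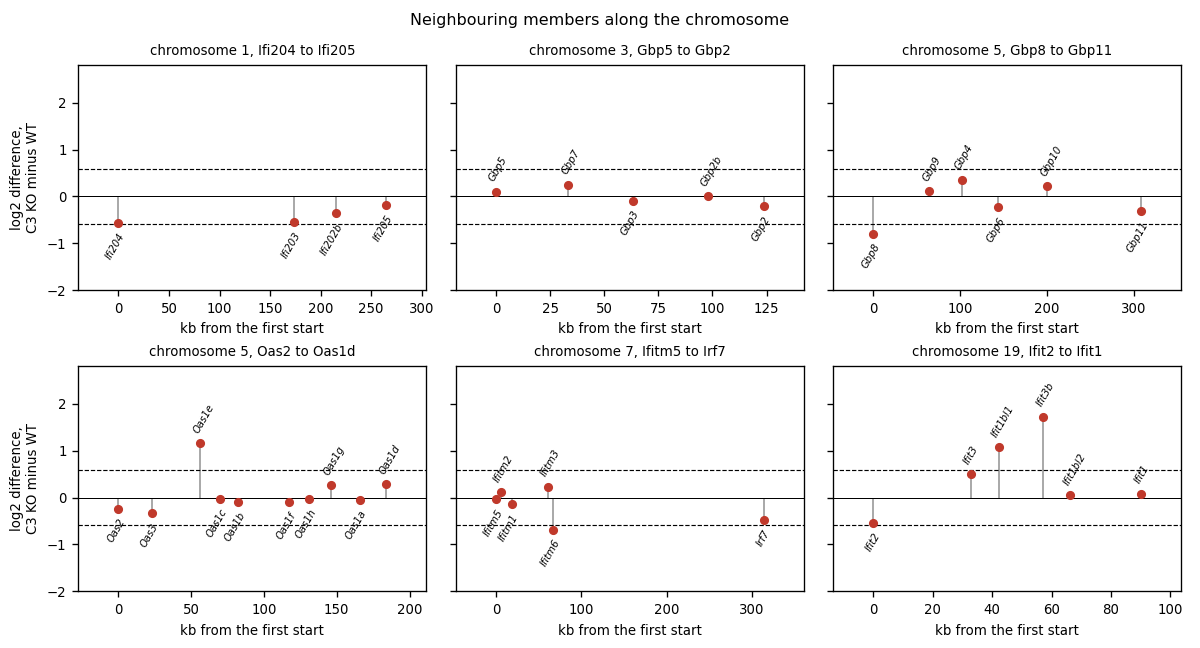
Log2 difference (C3 KO minus WT, y axis) of members in the 6 loci that hold at least 4 of them, by distance along the chromosome from the first start (kb, x axis). Dashed lines mark 1.5-fold. The Ifi200 genes all lie below 0. Oas1e stands beside Oas1c, which is near 0 and has levels near the background. The 3 highest Ifit genes, Ifit3, Ifit1bl1 and Ifit3b, lie next to each other.

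Many members lie in tandem, and neighbours often had unlike differences. The 10 Oas genes on chromosome 5 (GRCm38, 120730333 to 120921652) included Oas1e next to Oas1c, whose difference was -0.02. Oas1c was near the background median in C3 KO and below it in WT, so its difference is not exact. On chromosome 19 (34550694 to 34650009), the 6 Ifit genes ran from -0.54 for Ifit2 to 1.73 for Ifit3b, which was below the background in both arrays, within 99.3 kb. The Gbp genes lie in 2 groups: 5 on chromosome 3 (142496900 to 142638008) ran from -0.21 to 0.25, and 6 on chromosome 5 (105014153 to 105346472) from -0.80 to 0.35. The 4 Ifi200 genes on chromosome 1 (173746990 to 174031755) were the locus whose members all had a negative sign, and the 3 Ifi27 genes on chromosome 12 (103434189 to 103457223) the locus whose members all had a positive one. On chromosome 7, Irf7 and 5 Ifitm genes (140948962 to 141266481) ran from -0.68 to 0.23.

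Genes that act before and beside the members were also mostly within 1.5-fold. In 5 lists of the interferon pathway, 8 of 115 clusters passed 1.5-fold upward and 3 downward, 9.57% in all, against 7.48% of all clusters, and the median difference was 0.03. Receptors and kinases had 0 of 9 clusters past 1.5-fold. Ifnar1, a chain of the type I receptor, had a level of 8.68 in the C3 KO array and 8.48 in the WT array, and Ifnlr1, the specific chain of the lambda receptor, had 6.50 in C3 KO and 6.80 in WT. Jak1, the kinase shared by these receptors, had 9.50 in C3 KO and 9.49 in WT.

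Of 21 clusters of interferon genes, 2 were higher and 0 lower, or 9.52%, against 7.48% of all clusters. Among the 21, 8 had a positive and 12 a negative difference, with a median of -0.06. The higher ones were Ifnz (4.96 in the C3 KO array and 4.28 in the WT array) and Ifnab (4.29 in C3 KO and 3.42 in WT), and Ifnab was below the background median in WT. Ifna5 lay just inside the threshold in the other direction, with 6.62 in C3 KO and 7.20 in WT, a log2 difference of -0.58, and so did Ifna14, with 5.69 in C3 KO and 6.24 in WT. Ifnb1 had 4.07 in C3 KO and 4.24 in WT, and Ifng had 4.48 in C3 KO and 4.89 in WT. The interferon alpha genes resemble each other closely, and 7 of the 21 clusters are not unique in hybridization.

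Among 15 genes of nucleic acid sensing, 1 was called, or 6.67%, against 7.48% of all clusters. It was Tlr7, an endosomal receptor for single-stranded RNA, 1.57-fold higher in the C3 KO array (5.28 in C3 KO and 4.63 in WT). Tlr7 lies on the X chromosome, and the part of the sex-linked differences between the arrays in its value was not tested. Ifih1, the RNA sensor MDA5, had 8.91 in C3 KO and 8.95 in WT. Negative regulators had 0 of 10 past 1.5-fold, and Socs1, an inhibitor of JAK kinases, had 5.73 in C3 KO and 5.87 in WT.

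Of 60 clusters of 57 further interferon-induced genes, 5 were higher and 3 lower, or 13.3%, against 7.48% of all clusters. The median difference of this list was 0.01. The higher ones were Cd274, the checkpoint ligand PD-L1 (7.90 in the C3 KO array and 7.06 in the WT array, 1.79-fold), Slfn2, a gene of lymphocyte quiescence (7.84 in C3 KO and 7.07 in WT, 1.70-fold), Cmpk2, a nucleotide kinase (7.06 in C3 KO and 6.37 in WT, 1.61-fold), Trim30a (1.65-fold) and 1 of 3 clusters of Trim34a (1.62-fold). The lower ones were Phf11d (1.73-fold), Apol9a (1.61-fold) and Tgtp2, which was below the background medians in both arrays. Cmpk2 lies beside Rsad2 on chromosome 12, and the log2 differences of these neighbours were 0.69 and 0.17. The chemokine Cxcl10, a common readout of interferon, had 4.68 in C3 KO and 4.78 in WT.

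**Figure D5:**
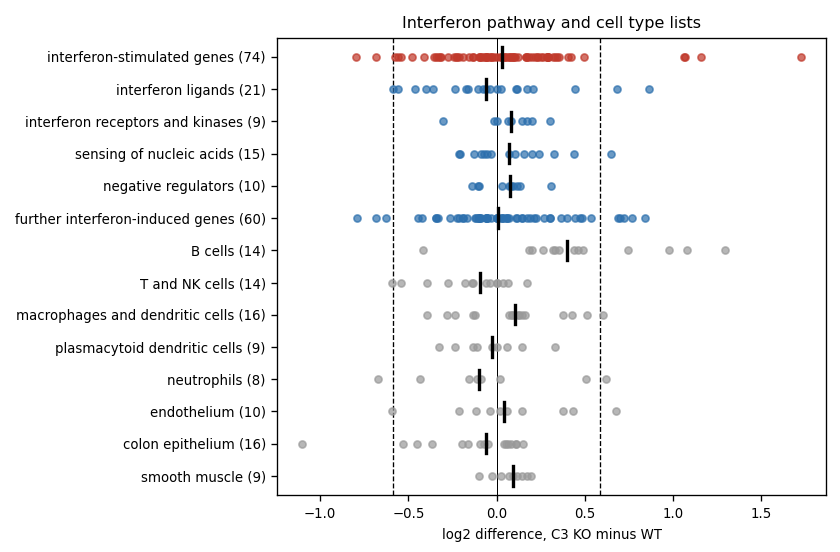
Log2 difference (C3 KO minus WT, x axis) of the 74 members (red), 5 lists of the interferon pathway (blue) and 8 cell type lists (grey), with the number of clusters in parentheses. Black bars are medians and dashed lines 1.5-fold, and the B cell list has the most positive median, 0.40.

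Cell types that respond to interferon were set beside the members through marker lists. For comparison, 3.66% of all clusters were higher and 3.82% lower. Macrophage and dendritic cell markers had 1 of 16 clusters higher and 0 lower, with a summed linear level of 1655 in the C3 KO array and 1471 in the WT array. T and NK cell markers had 0 of 14 higher and 1 lower (542 in C3 KO and 592 in WT). Neutrophil markers had 1 of 8 higher and 1 lower (379 in C3 KO and 333 in WT). Of these 8 clusters, 5 had a negative difference, and the median was -0.10. The higher marker, Retnlg, was below the background in WT, and the lower one, S100a8, in both arrays. Endothelial markers had 1 of 10 higher and 1 lower (986 in C3 KO and 970 in WT). For plasmacytoid dendritic cells, which make much type I interferon, 0 of 9 clusters passed 1.5-fold. Their differences were positive at 3 clusters and negative at 5, with a median of -0.02. The marker Siglech had the most positive difference of this list, with 5.25 in C3 KO and 4.92 in WT. Colon epithelium, the main site of the lambda receptor, had 0 of 16 higher and 1 lower. Of the immune, endothelial, epithelial and muscle lists, only that of B cells had a median beyond 0.2 in size (0.40), and the part of cell composition in any member's difference was not tested.

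Calls were also counted for terms in the deposited annotation. Of 99 clusters annotated with defense response to virus, 7 were at least 1.5-fold higher in the C3 KO array and 0 lower, or 7.07% in all, against 7.48% of all clusters (3.66% higher and 3.82% lower). Of these 99 clusters, 26 are members. The 7 include Ifit1bl1, Ifit3b, Oas1e, Ifnab and Ifnz. For the cellular response to interferon-beta, 0 of 20 clusters passed 1.5-fold in either direction. For the cellular response to interferon-gamma, 0 of 30 were higher and 2 lower, Gbp8 and the chemokine Ccl7 (4.61 in C3 KO and 5.36 in WT). For the response to interferon-gamma, 0 of 11 were higher and 1 lower, Calcoco2, which was below the background in C3 KO (3.84 in C3 KO and 4.47 in WT). The response to interferon-alpha had 0 of 5 clusters past 1.5-fold, and the negative regulation of viral genome replication 0 of 10.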

How the data were processed

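Total RNA from the mid colon of C3 KO and WT mice was hybridized to Affymetrix Mouse 2.0 ST arrays, 1 per genotype. The authors scanned the arrays and normalized them with gene-level RMA in Affymetrix Power Tools, and the deposited values are on the log2 scale. RMA gives both arrays nearly the same distribution, so a shift shared by most genes cannot be seen. The gene table and the series table hold the same values in all 41345 rows. The other deposited tables hold the authors' own fold changes and KEGG and GO enrichment results and were not used.

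Clusters of the main category were compared as C3 KO minus WT, with calls at 1.5-fold and no test, since the design has no replicates. By rule, the text names every member past 1.5-fold or within 0.05 of that threshold on the log2 scale, in each role group the 2 largest differences in each direction and the highest mean level, members with several clusters, and pathway genes past 1.5-fold. Other genes named were chosen for their role, after their values were seen. Members and lists were chosen with earlier results of these data known. The values of 2 members are in the counts but are not reported here by name. The annotation terms were likewise chosen after their values were seen. Promoters were matched by gene identifier. Alternatives were median and loess centring (fraction 0.3), the series table, minimum mean levels of 4 and 6, clusters of hybridization type 1, and 1 value per gene. Minimum probes of 16 and a narrower membership were chosen later, with the results known. The counts of calls and the median difference were tested on simulated data, and the choice by symbol on a short list of names. The promoter search, the centring and the loci were not tested in this way. Versions were pandas 2.3.3, numpy 2.4.6, statsmodels 0.14.6 and matplotlib 3.10.9 under Python 3.11.15; that of Affymetrix Power Tools is not given in the sources used here.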

Additional observations from a re-analysis of the deposited data

How the results depend on the processing

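The counts of 4 members higher and 2 lower kept within 1.5 times under median centring, loess centring, the series table, hybridization type 1 clusters (3 higher and 2 lower), the mean or the brightest cluster of each gene, and the narrower membership. They depended on level and on probe number. With a mean level of at least 4, 2 were higher and 2 lower, and with at least 6, 1 was higher and 0 lower. With at least 16 probes, chosen with the results known, 1 was higher and 1 lower. Of the pathway lists, 11 clusters passed 1.5-fold, and with a minimum mean level of 6 this fell to 4, as it did with at least 16 probes. Fewer clusters enter under these filters. The median difference of the members stayed between -0.03 and 0.08. Under either centring 74 of 74 members kept their side of the threshold, and the sign changed for 5 with median centring and 4 with loess. No replicate could be left out and no paired analysis was possible because each group has 1 array.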
